A study of Mus musculus with 24 samples.

Results

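The comparison described here sets LSK cells that had carried an MLL::ENL transgene induced at embryonic stage E10.5 against wild-type LSK cells, both from bone marrow of mice at postnatal day 28 (P28). LSK cells are lineage-negative, Sca-1+ KIT+ marrow cells, the fraction that holds blood stem cells and the earliest progenitors. It took the samples whose labels give both a group and these ages: 4 induced libraries and 4 wild-type (WT) libraries, 8 of the 24 RNA-seq libraries of the series. The induced group, written ME below, carries the human fusion under Tet-off control, switched on at E10.5, and the WT group is labelled wild type with no further allele or agent given. The series asks, by its title, about protection of fetal cells against leukaemia driven by MLL::ENL and its dependence on MLL3, the product of Kmt2c. The other libraries are WT and E10.5-induced ME from newborn liver (P0), ME induced at P0 and taken at P28, and a P28 ME group labelled RLT Vav Txp. The design text calls each group 4 biological replicates. The cells or promoter that drive the transgene, the strain, and the sex are not given in the sources used here. The design text describes the sorted cells as lineage-negative KIT+ progenitors whereas the sample labels say LSK.

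MLL::ENL joins the amino-terminal end of the histone methyltransferase MLL (Kmt2a) to ENL (Mllt1), a reader protein of the complexes that release paused RNA polymerase II. The fusion is found in acute leukaemias of infants and adults. It binds through menin (Men1) and LEDGF (Psip1), recruits the super elongation complex and the methyltransferase DOT1L, and is best known for holding HOXA genes, Meis1, Mecom and similar stem cell regulators active. In a Tet-off system the transgene is transcribed while doxycycline is absent. Counts were made on mouse genes alone, and the level of the fusion was not analysed here.

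The WT libraries held between 31233688 and 75945220 counts over 23494 to 26453 genes, and the ME libraries between 42994217 and 80393500 counts over 24200 to 25787 genes. Expression is given as CPM, counts scaled to the size of the library, after TMM scaling, which adjusts for libraries of different composition. The groups also differed in what the libraries were made of. Mitochondrially encoded RNA took 1.32% to 2.15% of the counts in WT and 0.371% to 0.520% in ME. Coding genes under 1500 bases of exon took 7.32% to 9.28% of coding counts in WT and 4.64% to 5.22% in ME, while coding genes over 5000 bases took 34.4% to 37.7% and 42.7% to 44.1%. P0-induced ME libraries resembled the E10.5-induced ones, at 0.500% to 0.623% mitochondrial. No range overlapped between WT and ME. Neither the labels nor the headers name a batch, so preparation and genotype cannot be told apart in these shares. Many lists below are therefore also given from a fit with a smooth offset for GC content and gene length in each library, called the length-adjusted fit. A list given without such values may also have moved in that fit.

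**Figure D1:**
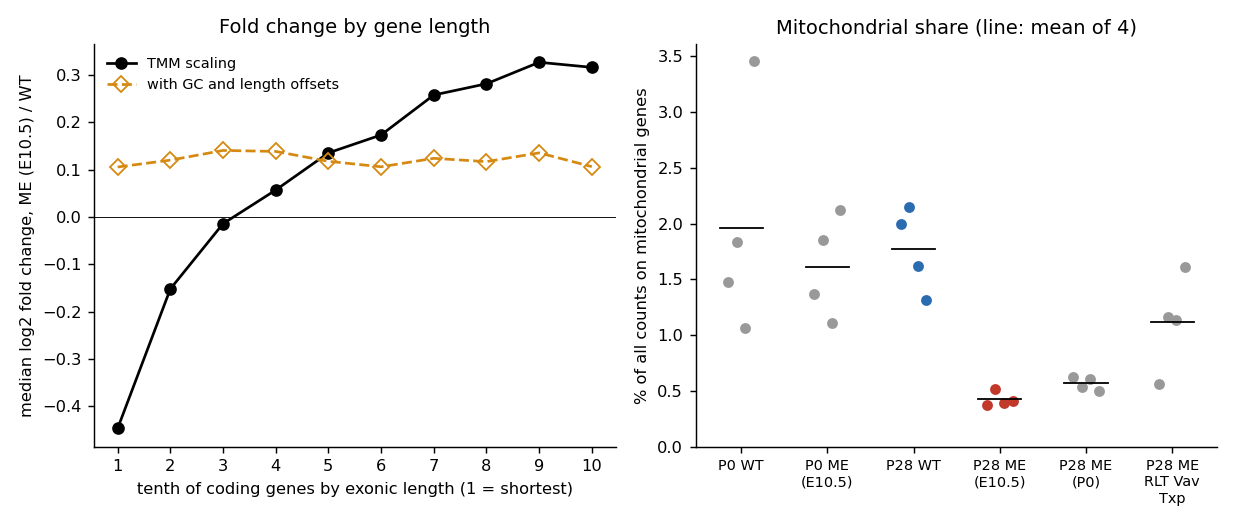
Left, the median log2 fold change (ME over WT at P28) of coding genes in 10 bins of exonic length, with TMM scaling and with GC and length offsets. Right, the percentage of each library's counts from mitochondrially encoded genes in the 6 groups, 1 point per library and a line at the mean of 4. With TMM the median runs from -0.45 in the shortest bin to 0.32 in the longest, with offsets it lies between 0.11 and 0.14 in all bins, and the P28 ME libraries lie at 0.371% to 0.520% against 1.32% to 2.15% in P28 WT.

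Of 23059 genes tested, 2827 (12.3%) differed between ME and WT by edgeR's quasi-likelihood test with Benjamini-Hochberg adjusted p under 0.05, the threshold used throughout. Of these, 1804 (7.82% of genes tested) were higher in ME and 1023 (4.44%) were lower. The rises were mostly small and the falls larger, with a median log2 fold change of 0.80 among the higher and -1.26 among the lower genes. At 2-fold or more, 456 genes were higher and 671 lower. Nearly all rises were coding genes, 1793 of the 1804. The falls held 548 coding genes, 261 processed pseudogenes, 41 lincRNAs and 30 antisense genes. In 2691 of the called genes (95.2%) the 8 libraries separated completely by group, against 28.2% of all genes tested. The calls were made on the same 8 libraries, so this share is no separate support for them. Scaling moved the balance of directions: 63.8% of called genes were higher with TMM, 52.2% with RLE scaling (11.1% of genes called, 5.8% higher and 5.3% lower), 33.3% with plain library totals (9.76% called, 3.25% higher and 6.51% lower) and 75.5% in the length-adjusted fit, where 9.78% of genes were called (7.38% higher, 2.4% lower). Fewer genes were called without single libraries, down to 893 without WT library 2, 1163 without WT library 1, 1552 without ME library 3, 1569 without ME library 2 and 1641 without ME library 1.

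**Figure D2:**
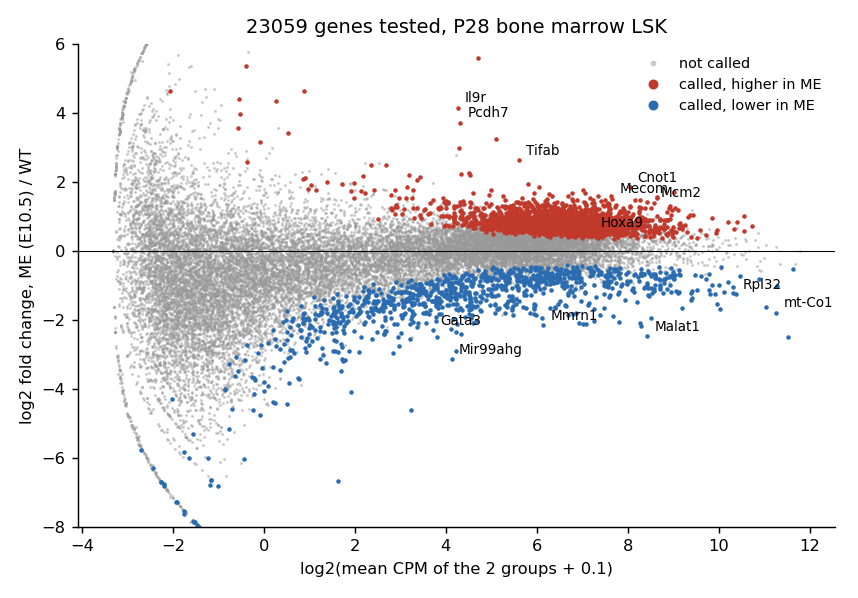
Each point is 1 of 23059 genes, with the log2 of its mean CPM over both groups plus 0.1 on the x axis and its log2 fold change, ME over WT at P28, on the y axis. Called genes are coloured by direction and 58 genes lie outside the plotted range of -8 to 6. Called rises crowd at moderate folds and high expression, and called falls reach further from 0.

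The sorting markers themselves did not pass the test. Kit, the receptor for stem cell factor, stood at 726, 586, 690 and 748 CPM in WT and at 1116, 1015, 1241 and 889 CPM in ME (log2 fold change 0.63 ± 0.39 SE, adjusted p = 0.32). Ly6a, which encodes Sca-1, stood at 301, 280, 337 and 267 CPM in WT and at 210, 210, 253 and 248 CPM in ME (-0.36, adjusted p = 0.262 and, with the length-adjusted fit, 0.25, adjusted p = 0.51). In both genes the groups were apart, Kit higher and Ly6a lower in ME. Flt3 (1175 and 1147 CPM) and Cd34 (1237 and 1104 CPM) were close in mean, and both were expressed in every library. Procr, the stem cell surface protein EPCR, fell from 86.3 ± 5.44 to 50.3 ± 4.10 CPM (SD, n = 4 each, edgeR log2 fold change -0.78, adjusted p = 0.00363).

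Endogenous Kmt2a, the mouse counterpart of the 5′ end of the fusion, had 36.2, 44.1, 39.9 and 46.4 CPM in WT and 56.5, 53.4, 58.4 and 57.3 CPM in ME, a log2 difference of 0.44 that missed the threshold (adjusted p = 0.0975). Its groups did not overlap. Mllt1, the mouse ENL gene, rose from 72.5 ± 10.7 to 136 ± 8.78 CPM (SD, n = 4 each, edgeR log2 fold change 0.90, adjusted p = 0.0253), a call not kept with plain library totals or without a filter on low counts, nor without WT library 1, 2 or 3 or ME library 1, 2 or 3. Kmt2c, which encodes MLL3, had 34.6, 24.4, 33.2 and 33.7 CPM in WT and 45.3, 34.3, 48.5 and 33.9 CPM in ME, with overlapping groups and no call (0.36, adjusted p = 0.348). Whether reads from the human transgene align to mouse Kmt2a or Mllt1 was not tested.

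The 15 largest rises among well expressed genes mixed genes with little expression in WT and genes already abundant there. Pcdh7, a protocadherin of cell contacts, had 1.87, 1.76, 4.44 and 2.98 CPM in WT and 33.1, 43.3, 46.4 and 24.0 CPM in ME (log2 fold change 3.71 ± 0.38 SE, edgeR adjusted p = 5.31e-06). Every ME library lay several-fold above every WT library. Pcdh7 lies on the plus strand of chromosome 5 from 57717967 to 58133230 (GRCm38, as all coordinates here). Tifab, an inhibitor of TRAF6 signalling on chromosome 13 (56173704 to 56178885), had 7.46, 11.2, 19.2 and 16.2 CPM in WT and 85.1, 63.8, 92.3 and 94.9 CPM in ME (2.63 ± 0.28, adjusted p = 5.31e-06). Ehd3, an endosomal recycling protein, rose from 4.41 ± 0.991 to 34.8 ± 5.89 CPM (2.98, adjusted p = 4.82e-05). Chga, the secretory granule protein chromogranin A, had 5.37, 5.95, 7.81 and 7.04 CPM in WT and 89.4, 71.9, 46.5 and 41.0 CPM in ME (3.25, adjusted p = 0.00226), with the widest spread of these in ME.

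Nsg2, a neuronal vesicle protein, and Rhbdf1, an inactive rhomboid protein that controls release of growth factors, lie close together on chromosome 11. Nsg2 (32000463 to 32059202) rose from 6.99 ± 1.18 to 33.0 ± 3.51 CPM (log2 fold change 2.24, edgeR adjusted p = 0.00321). Rhbdf1 (32209585 to 32222300) had 10.4, 5.24, 5.31 and 11.9 CPM in WT and 38.3, 36.6, 41.4 and 34.3 CPM in ME (2.19, adjusted p = 0.00448). Between them lies Il9r (32187541 to 32200279), the interleukin-9 receptor, which led the cytokine receptor list. Il9r had 0, 2.13, 2.87 and 3.05 CPM in WT and 34.7, 33.2, 36.9 and 39.7 CPM in ME (4.15 ± 0.69, adjusted p = 0.00192). Other genes of the neighbourhood, picked for their position after these values were seen, were not called: Snrnp25 had means of 72.5 CPM in WT and 76.5 CPM in ME, Mpg 13.9 and 12.5 CPM, and Nprl3 31.6 and 42.7 CPM. The alpha-globin genes Hba-a1 (93.9 and 81.8 CPM) and Hba-a2 (72.8 and 51.8 CPM) were not called either, and as near-identical copies their counts may have been split between them.

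The remaining leading rises were Chdh, Dbn1, Kif4, Cnot1, Pde3b, Cad, Myo7a, Tln1 and Espl1, with log2 fold changes from 1.68 to 2.26. Tln1, the talin that couples integrins to actin, had 220, 196, 247 and 317 CPM in WT and 836, 801, 981 and 566 CPM in ME (edgeR adjusted p = 0.00349). Cnot1, the scaffold of the CCR4-NOT deadenylase, had 131, 84.0, 109 and 136 CPM in WT and 431, 448, 471 and 314 CPM in ME (adjusted p = 0.00543). Cad, the enzyme that starts pyrimidine synthesis, had 58.3, 43.2, 57.9 and 72.9 CPM in WT and 236, 238, 214 and 108 CPM in ME (1.78, adjusted p = 0.023). ME library 4 was the lowest of its group in Cad, Tln1 and Cnot1 and still above every WT library. The Cad call was lost without a filter on low counts and in 6 of the 8 fits that left out 1 library. The other 14 leading rises were called in every alternative fit and without any single library.

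**Figure D3:**
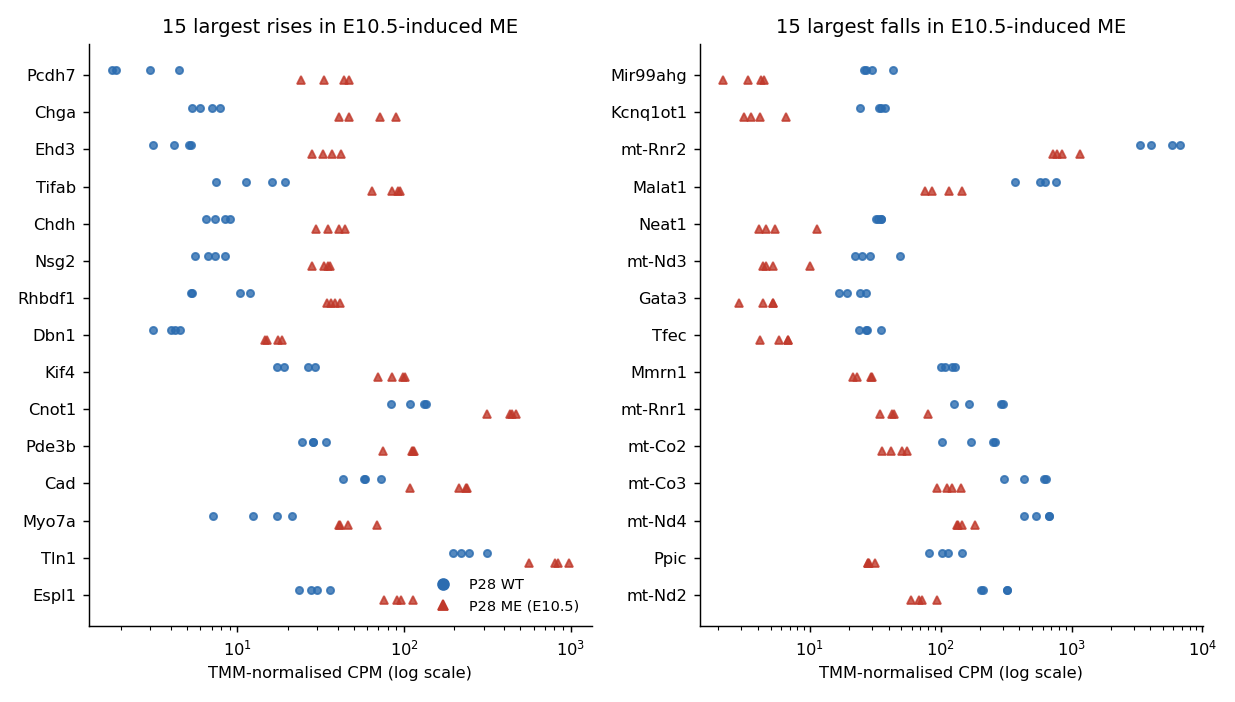
CPM on a log axis for the 15 largest rises (left) and 15 largest falls (right), with WT libraries as blue circles and ME libraries as red triangles, 4 each. In every gene shown the groups do not overlap, which the rule that chose these genes required.

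The largest falls were of another kind. The 15 leading genes were 7 mitochondrially encoded RNAs, 4 long noncoding RNAs that stay in the nucleus or host microRNAs, and the coding genes Gata3, Tfec, Mmrn1 and Ppic. In the length-adjusted fit the 7 mitochondrial falls shrank to log2 fold changes of -1.57 to -0.70. There mt-Nd3 was not called (-0.71, edgeR adjusted p = 0.112). Without 1 library the mt-Rnr1 call was lost in 2 fits and the mt-Nd2 call in 1. Of the long noncoding RNAs, Mir99ahg had 29.9, 26.8, 42.8 and 25.9 CPM in WT and 4.25, 3.35, 4.46 and 2.15 CPM in ME (log2 fold change -3.14 ± 0.37, edgeR adjusted p = 2.46e-05). Kcnq1ot1, the antisense RNA of the imprinted Kcnq1 domain, had 24.3, 37.4, 35.1 and 33.7 CPM in WT and 3.11, 4.18, 6.55 and 3.57 CPM in ME (-2.90 ± 0.31, adjusted p = 6.17e-06). Malat1, a nuclear speckle RNA, fell from 583 ± 165 to 106 ± 32.1 CPM (adjusted p = 0.00446), and Neat1, the scaffold of paraspeckles, from 33.8 ± 1.52 to 6.39 ± 3.38 CPM (adjusted p = 0.000168). In all of these the highest ME library lay below the lowest WT library. Without strand information for the counting, Kcnq1ot1 cannot be told from the introns of Kcnq1 that it overlaps.

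Over the list of 25 long noncoding RNAs, 13 fell and none rose (median log2 fold change -1.07, against -0.10 over all genes and a background of 4.44% called lower). In the length-adjusted fit 11 fell with a median of -0.63, against 0.09 over all genes. Several of these RNAs are the primary transcripts of microRNAs, so their mature sequences are given as RefSeq places them on GRCm38.p6, with the seed, bases 2 to 8 that pair with targets, in capitals. Mir99ahg on chromosome 16 hosts miR-99a, let-7c and miR-125b, a microRNA known for its effect on the size of the stem cell pool.
mmu-miR-99a-5p: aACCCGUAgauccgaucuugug
mmu-let-7c-5p: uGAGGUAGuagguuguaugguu
mmu-miR-125b-5p: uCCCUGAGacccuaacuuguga
Mir142hg, host of the blood-specific miR-142, had 10.9, 12.9, 16.7 and 9.31 CPM in WT and 1.18, 1.19, 1.84 and 2.13 CPM in ME (-2.97, edgeR adjusted p = 0.00206). Mir155hg, host of the inflammatory miR-155, fell from 6.28 ± 0.620 to 0.840 ± 0.669 CPM (adjusted p = 0.00527).
mmu-miR-142a-3p: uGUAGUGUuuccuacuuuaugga
mmu-miR-155-5p: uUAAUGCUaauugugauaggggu
Dleu2, host of miR-15a and miR-16, fell from 17.3 ± 1.62 to 5.71 ± 1.27 CPM (adjusted p = 0.00375), and its 2 microRNAs share the seed AGCAGCA.
mmu-miR-15a-5p: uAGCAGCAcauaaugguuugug
mmu-miR-16-5p: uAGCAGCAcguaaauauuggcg
Mir17hg, host of the growth-promoting miR-17 to miR-92 cluster, had 1.68, 2.25, 11.6 and 6.94 CPM in WT and 0.996, 0.976, 0.528 and 3.04 CPM in ME, so its groups overlapped (-2.04, adjusted p = 0.0273, and up to 0.143 without 1 library). miR-17 and miR-20a of this cluster share the seed AAAGUGC.
mmu-miR-17-5p: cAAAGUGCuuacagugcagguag
mmu-miR-20a-5p: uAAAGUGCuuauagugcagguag
These values are for the host transcripts, and mature microRNAs were not measured. The 4 hosts other than Mir99ahg were described after their values were seen.

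Among the coding falls, Gata3, a transcription factor of T cells that also acts in stem cells, had 24.1, 19.1, 27.0 and 16.8 CPM in WT and 2.86, 5.18, 5.27 and 4.37 CPM in ME (log2 fold change -2.29 ± 0.31, edgeR adjusted p = 0.000168). Mmrn1, a platelet and endothelial matrix protein used as a stem cell marker, had 123, 108, 99.7 and 128 CPM in WT and 29.1, 23.1, 29.7 and 21.4 CPM in ME (-2.15 ± 0.33, adjusted p = 0.000803). Tfec, a relative of MITF, fell from 28.3 ± 4.82 to 5.88 ± 1.26 CPM, and Ppic, a cyclophilin, from 111 ± 26.7 to 28.8 ± 1.80 CPM. All 4 were called in every alternative fit and without any single library.

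Of the 27 tested genes on a list of known MLL-fusion targets, 7 rose and none fell, with a median log2 fold change of 0.34. By comparison, 7.82% of all genes and 11.5% of coding genes were called higher. The listed genes are long, with a median exonic length of 7816 bases. Among coding genes of 7399 to 9700 bases, 332 of 1551 were called higher. Apart from Tifab they were Mecom, Igf2bp2, Rnf220, Frmd8, Arid2 and Mef2c. Mecom, which encodes the stem cell transcription factor EVI1, had 113, 101, 89.7 and 117 CPM in WT and 322, 308, 306 and 262 CPM in ME (1.51 ± 0.24, edgeR adjusted p = 0.000967). Igf2bp2, an mRNA-binding protein, had 18.3, 11.4, 16.8 and 14.2 CPM in WT and 47.7, 58.2, 45.7 and 34.7 CPM in ME (1.62, adjusted p = 0.00565). Meis1, the cofactor of HOXA9 in these leukaemias, was not called and lay at 350, 299, 334 and 334 CPM in WT and 321, 312, 361 and 319 CPM in ME. Cdk6 (85.8 CPM in both groups), Lmo2 (926 and 933 CPM), Flt3 and Eya1 (57.2 and 48.4 CPM) were not called, and Myc (407 and 650 CPM, adjusted p = 0.054) just missed. The Mef2c call was lost whichever of the 8 libraries was left out, and in 5 of 12 alternative fits, among them the length-adjusted fit (adjusted p = 0.141). That fit called 7 members, Mef2c not among them, and gave a list median of 0.20 against 0.09 over all genes. Without length adjustment, the count of 7 was 4 when WT library 1 or WT library 2 was left out.

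Among 18 tested Hox genes, the body-axis regulators that stem cells use in part, 3 rose and none fell. Over coding genes 11.5% were called higher. Hoxa5 had 11.5, 10.8, 4.63 and 9.26 CPM in WT and 24.6, 20.9, 26.2 and 24.3 CPM in ME (log2 fold change 1.41 ± 0.32, edgeR adjusted p = 0.00642). Hoxa10 had 71.3, 82.8, 68.2 and 83.5 CPM in WT and 141, 138, 122 and 121 CPM in ME (0.77, adjusted p = 0.02, and 0.0596 with plain library totals). Hoxa9 had 124, 118, 115 and 134 CPM in WT and 184, 166, 168 and 195 CPM in ME (0.53, adjusted p = 0.041). The Hoxa9 groups were apart, yet the call was lost in 6 of 12 alternative fits, the length-adjusted one (0.34, adjusted p = 0.223) among them. The Hoxb genes were at or under a mean of 3.67 CPM in both groups and none was called. The count of 3 was also found in the length-adjusted fit, was 1 with plain totals, and was 1 without WT library 1, 2 or 3 or ME library 2. Without 1 library the Hoxa5 call was always kept, the Hoxa10 call was lost in 4 fits and the Hoxa9 call in 7. Hoxa11 and Hoxb1 were too low to test. Of 16 genes of the fetal axis, Igf2bp2, Hmga1 and Postn rose, with overlapping groups for Hmga1. Postn was not called in 5 alternative fits, the length-adjusted one among them (adjusted p = 0.0547), and the list held 1 rise without WT library 1, WT library 2 or ME library 2. In the same list Lin28b (2.64 and 4.49 CPM) and Hmga2 (40.1 and 36.7 CPM) were not called.

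Genes of the COMPASS complexes, which methylate histone H3 lysine 4 and include MLL itself, rose in 8 of 17 cases and fell in none. Their median log2 fold change was 0.61, and 11.5% of coding genes were called higher. Their median exonic length was 8383 bases, and 332 of 1551 coding genes of 7399 to 9700 bases were called higher. The COMPASS risers were shared subunits and cofactors. Ash2l rose from 119 ± 8.15 to 188 ± 9.75 CPM, Men1, which encodes menin, from 110 ± 14.9 to 185 ± 17.0 CPM, Wdr5 from 92.0 ± 16.3 to 154 ± 9.03 CPM and Hcfc1 from 84.5 ± 13.5 to 190 ± 42.9 CPM (edgeR adjusted p = 0.00483, 0.00543, 0.00739 and 0.0127). None of the methyltransferases was called: Kmt2d had 41.9 CPM in WT and 28.8 CPM in ME (adjusted p = 0.0643), and Kmt2b 17.8 and 19.7 CPM. The list had 7 rises, 1 fall and a median of 0.44 in the length-adjusted fit, and 4 rises and 2 falls with plain library totals. Without 1 library the count of rises was 3 (WT 1), 2 (WT 2), 5 (ME 1) and 5 (ME 2).

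Of 25 genes for transcription elongation and DOT1L partners, 13 rose and none fell (median 0.55), against 11.5% of coding genes called higher. The listed genes had a median exonic length of 6654 bases, and 276 of 1551 coding genes of 6001 to 7398 bases were called higher. The length-adjusted fit gave 11 rises and 1 fall. Supt6, a histone chaperone that travels with polymerase, had 37.8, 27.3, 39.6 and 45.3 CPM in WT and 131, 117, 134 and 85.4 CPM in ME (log2 fold change 1.64, edgeR adjusted p = 0.00642). Aff1, a super elongation complex scaffold and itself an MLL fusion partner, rose from 33.4 ± 5.24 to 63.2 ± 4.74 CPM (adjusted p = 0.0073), and Cdk9, the kinase of that complex, from 144 ± 16.0 to 215 ± 5.47 CPM (adjusted p = 0.00836). Dot1l had 33.1 and 39.2 CPM and Mllt3, the paralog of Mllt1, 94.6 and 65.1 CPM, neither called. The count was 4 with plain library totals, and without 1 library 4 (WT 1), 2 (WT 2), 8 (WT 3), 8 (ME 1), 7 (ME 2) and 7 (ME 3).

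Among 32 Polycomb genes, whose products silence developmental genes, 10 rose and none fell, against 11.5% of coding genes called higher. Their median exonic length was 5253.5 bases, and 245 of 1551 coding genes of 5074 to 6001 bases were called higher. Suz12, a core subunit of PRC2, rose from 117 ± 7.85 to 198 ± 16.8 CPM (log2 fold change 0.76, edgeR adjusted p = 0.00891) and Jarid2, its DNA-targeting cofactor, from 49.9 ± 9.20 to 101 ± 9.72 CPM (1.01, adjusted p = 0.0196). The Polycomb count depended on the fit, with 5 rises and 1 fall in the length-adjusted fit, 1 rise with plain totals, and 1 rise without WT library 1 or without WT library 2 (4 to 6 without WT library 3 or ME library 1, 2 or 3). Of 18 genes of DNA methylation, 7 rose and none fell, against the same 11.5%, and 9 rose in the length-adjusted fit. Dnmt1, the maintenance methyltransferase, had 188, 153, 235 and 237 CPM in WT and 675, 676, 615 and 426 CPM in ME (1.56, adjusted p = 0.00524), and its recruiter Uhrf1 rose from 156 ± 17.1 to 374 ± 64.9 CPM (1.26, adjusted p = 0.00471). The count of 7 was 3 without WT library 1 or 2 and 4 without ME library 3. Tet1, Tet2 and Tet3, which oxidise methylcytosine, were not called.

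Cell division genes rose in large number. Of 53 genes of S phase and mitosis, 34 rose and none fell (median log2 fold change 0.87), against 11.5% of coding genes called higher. In 38 every ME library lay above every WT library, against 16.6% of all genes. The length-adjusted fit gave 31 rises and none lower, with a median of 0.90. Summed over the list, the level was 5992 to 7548 CPM in WT and 10134 to 13549 CPM in ME. Rrm1, the large subunit of ribonucleotide reductase, had 271, 317, 348 and 294 CPM in WT and 757, 825, 646 and 566 CPM in ME (1.18 ± 0.21, edgeR adjusted p = 0.00213). Mcm4, of the replicative helicase, had 163, 170, 205 and 208 CPM in WT and 467, 490, 433 and 375 CPM in ME (1.24, adjusted p = 0.00226). Both groups were tight and far apart. Plk1, a mitotic kinase, rose from 47.8 ± 4.90 to 114 ± 20.7 CPM (1.25, adjusted p = 0.0022), and Kif11, the motor that separates spindle poles, from 106 ± 4.47 to 271 ± 22.8 CPM (1.35, adjusted p = 0.00226). The 19 members not called held the clamp Pcna (284 and 265 CPM), Tyms (150 and 124 CPM), Prim1 (149 and 117 CPM), Cdk1 (143 and 169 CPM) and Birc5 (145 and 151 CPM). The called members had a median exonic length of 4546 bases and the others 3495. Without WT library 1 the count of 34 was 22.

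Promoters of this list are shown because its members moved together and 2 motifs are known to time such genes: E2F sites in S phase genes and the CHR element, TTTGAA, in mitotic genes. A window from 130 bases before to 20 after the RefSeq start site was searched on both strands. CHR letters were present in 11 of 23 mitosis promoters (47.8%), 3 of 21 S phase promoters (14.3%) and 6.78% of the 13348 promoters of all tested genes. E2F letters, searched as TTTCCCGC, TTTGGCGC, TTTGCCGC and TTTCGCGC, were present in 1 of 21 S phase promoters (4.76%), 0 of 23 mitosis promoters and 2.22% of all. These matches are descriptions of sequence, and binding was not measured. Mcm6, another helicase subunit, rose from 624 ± 55.4 to 1211 ± 178 CPM and holds the E2F match, with all matched letters in capitals (chr1:128359686-128359835, minus strand). Top2a, the topoisomerase that untangles chromosomes (309 ± 27.7 to 734 ± 110 CPM, chr11:99024170-99024319, minus strand), Kif11 (chr19:37376252-37376401, plus strand) and the proliferation marker Mki67 (68.7 ± 16.0 to 150 ± 17.8 CPM, chr7:135716360-135716509, minus strand) hold CHR letters, Mki67 at 2 places, and TTCAAA is the same element on the other strand.
Mcm6: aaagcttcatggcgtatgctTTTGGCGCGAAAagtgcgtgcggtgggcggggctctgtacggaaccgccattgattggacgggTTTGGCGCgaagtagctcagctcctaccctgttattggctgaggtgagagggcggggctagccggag
Kif11: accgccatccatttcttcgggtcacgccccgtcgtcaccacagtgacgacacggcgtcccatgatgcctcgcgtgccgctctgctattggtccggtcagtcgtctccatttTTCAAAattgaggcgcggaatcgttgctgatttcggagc
Top2a: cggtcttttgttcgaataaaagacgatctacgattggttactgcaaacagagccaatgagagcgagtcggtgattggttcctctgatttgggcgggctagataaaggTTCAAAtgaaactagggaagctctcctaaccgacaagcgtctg
Mki67: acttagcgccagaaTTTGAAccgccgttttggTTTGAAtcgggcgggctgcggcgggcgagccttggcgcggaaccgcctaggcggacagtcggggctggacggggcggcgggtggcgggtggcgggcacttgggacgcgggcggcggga

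Among 20 genes that control the cell cycle, 5 rose and none fell: Ccnd1, E2f8, E2f4, Rbl1 and Rbl2. Over coding genes 11.5% were called higher. Ccnd1, cyclin D1, had 7.16, 13.4, 9.92 and 12.6 CPM in WT and 36.6, 29.0, 29.6 and 20.5 CPM in ME (log2 fold change 1.42, edgeR adjusted p = 0.0132). The list held 1 to 3 rises without WT library 1 or 2 or ME library 1, 2 or 3. In the length-adjusted fit the count was again 5, and the list median moved from 0.36 to 0.14. The partner kinases Cdk4 (642 and 647 CPM) and Cdk6 and the inhibitors Cdkn1a (6.83 and 7.39 CPM), Cdkn1b (9.52 and 5.45 CPM) and Cdkn1c (18.1 and 18.6 CPM) were not called. Of 27 p53 targets, Gtse1, Ppm1d and Sesn1 rose and Zmat3 fell (4 higher and 1 lower in the length-adjusted fit). Of the named 4, Gtse1 was called in all fits, whereas without 1 library Ppm1d was lost in 5 of 8 fits, Zmat3 in 7 and Sesn1 in 8. Of 18 BCL2 family genes only the survival factor Mcl1 rose, from 258 ± 13.6 to 332 ± 11.5 CPM (0.37, adjusted p = 0.0395). That call was lost in 4 alternative fits and in 7 of 8 fits without 1 library. The length-adjusted fit called 2 members of the family higher.

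Genes of the nuclear pore, the channel between nucleus and cytoplasm, rose in 19 of 29 cases and fell in none (median log2 fold change 0.82, and 18 rises with a median of 0.74 in the length-adjusted fit). The share of coding genes called higher was 11.5%. Nup93, of the inner ring, had 48.7, 56.2, 59.4 and 58.9 CPM in WT and 157, 164, 121 and 108 CPM in ME (1.30 ± 0.18, edgeR adjusted p = 0.000163). Nup50, of the nuclear basket, had 72.2, 73.4, 76.7 and 96.9 CPM in WT and 187, 176, 154 and 163 CPM in ME (1.09 ± 0.15, adjusted p = 0.000163). Ranbp2, of the cytoplasmic filaments, rose from 82.5 ± 2.47 to 192 ± 24.8 CPM and Nup107, of the outer ring, from 73.6 ± 11.1 to 146 ± 10.1 CPM. The groups were apart in all 4 of these genes. The summed level was 2344 to 2706 CPM in WT and 3642 to 4512 CPM in ME. Without WT library 1 the count was 11 and without WT library 2 it was 12.

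Of 48 genes of ribosome biogenesis and Myc-driven growth, 19 rose and none fell (median 0.47), against 11.5% of coding genes called higher. In the length-adjusted fit 22 rose. Heatr1, which acts on ribosomal RNA transcription and processing, had 40.8, 46.4, 48.3 and 69.1 CPM in WT and 166, 171, 151 and 128 CPM in ME (log2 fold change 1.59 ± 0.25, edgeR adjusted p = 0.000693). Ubtf, the factor that opens ribosomal DNA to polymerase I, rose from 129 ± 19.9 to 229 ± 17.5 CPM (adjusted p = 0.00268), Ddx21, a nucleolar helicase, from 62.0 ± 14.0 to 124 ± 5.19 CPM (adjusted p = 0.00349) and Nat10, an RNA acetyltransferase, from 41.4 ± 2.99 to 89.4 ± 16.0 CPM (adjusted p = 0.00517). Npm1 (833 and 653 CPM) and Mycn (291 CPM in both) were not called. The count was 11 without WT library 1, 7 without WT library 2 and 11 without ME library 2.

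The proteins of the ribosome itself went the other way. Of 83 cytosolic ribosomal protein genes, 68 fell and none rose (median log2 fold change -0.997), against 4.44% of all genes called lower. In 77 every ME library lay below every WT library, against 11.6% of all genes. Their summed level was 49569 to 65744 CPM in WT and 27913 to 33655 CPM in ME. Rpl32 had 1809, 2273, 1858 and 1511 CPM in WT and 734, 857, 751 and 787 CPM in ME (-1.25 ± 0.22, edgeR adjusted p = 0.00192). Rpl4 (1552 and 1513 CPM) was not called. In the length-adjusted fit 49 fell and 1 rose, with a median of -0.58, and without WT library 2 the count was 44. Ribosomal proteins have many processed pseudogenes, and 70 of the 261 processed pseudogenes called lower carry a ribosomal protein name. How many of all 3457 processed pseudogenes tested carry such a name was not counted, so no excess can be read from this. The handling of reads that match several places is not given in the sources used here.

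**Figure D4:**
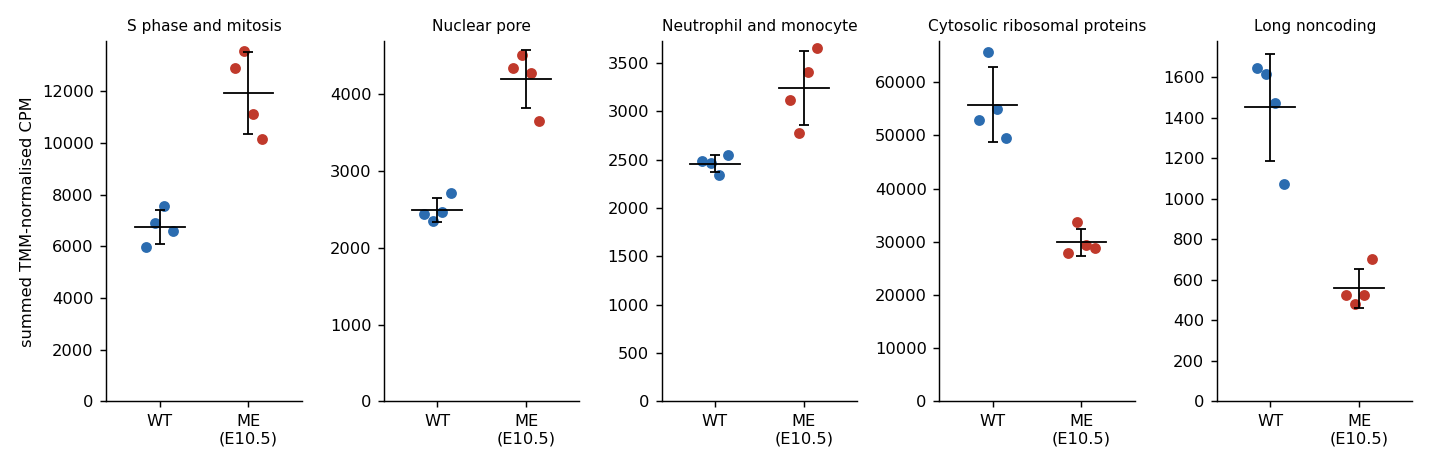
Summed CPM of 5 gene lists in each of the 8 libraries, with a line at the mean and a bar of 1 SD (n = 4). S phase and mitosis (5992 to 7548 in WT, 10134 to 13549 in ME) and nuclear pore sums are higher in every ME library, ribosomal protein (49569 to 65744, 27913 to 33655) and long noncoding sums are lower in every ME library, and the neutrophil and monocyte sum is 2339 to 2552 in WT and 2780 to 3657 in ME.

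Of the 13 mitochondrially encoded protein genes, 11 fell and none rose (median -1.81), against 4.44% of all genes called lower. All 13 had separate groups with ME below WT, against 11.6% of all genes. mt-Co1, the catalytic subunit of cytochrome oxidase, had 3930, 4296, 3852 and 3187 CPM in WT and 960, 1316, 1111 and 1022 CPM in ME (log2 fold change -1.79 ± 0.26, edgeR adjusted p = 0.000363). The large ribosomal RNA mt-Rnr2 had 5864, 6771, 4039 and 3345 CPM in WT and 722, 1167, 775 and 847 CPM in ME (-2.51, adjusted p = 0.00295). In the length-adjusted fit 7 of the 13 fell, with a median of -0.70. Fewer mitochondria, less RNA in each, and less capture of such RNA cannot be told apart in these libraries. The nuclear genes of the same respiratory chain moved less: of 78, 14 fell and 1 rose with a median of -0.55, against 4.44% of all genes called lower and 7.82% higher. The length-adjusted fit gave 9 falls, 4 rises and a median of -0.05. With plain totals 43 fell, and without 1 library the count lay between 1 (WT 2) and 15 (WT 4), with 5 without WT 1, ME 1 or ME 2, 3 without ME 3 and 8 without ME 4. Ndufa4 fell from 635 ± 119 to 294 ± 30.7 CPM (-1.11, adjusted p = 0.00881). Of 55 clustered histone genes, whose mRNAs lack poly(A) tails, 5 fell and none rose, H1f5 among them (28.4 ± 10.4 to 8.78 ± 1.50 CPM, adjusted p = 0.00909). The histone list had a median exonic length of 539 bases. Among coding genes of 66 to 1668 bases, a similar share, 153 of 1552, was called lower. Leaving out WT library 1 or 2, or ME library 2, 3 or 4, left 3 histone falls. In the length-adjusted fit 4 fell and 1 rose, and the median of the list moved from -0.85 to -0.14.

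**Figure D5:**
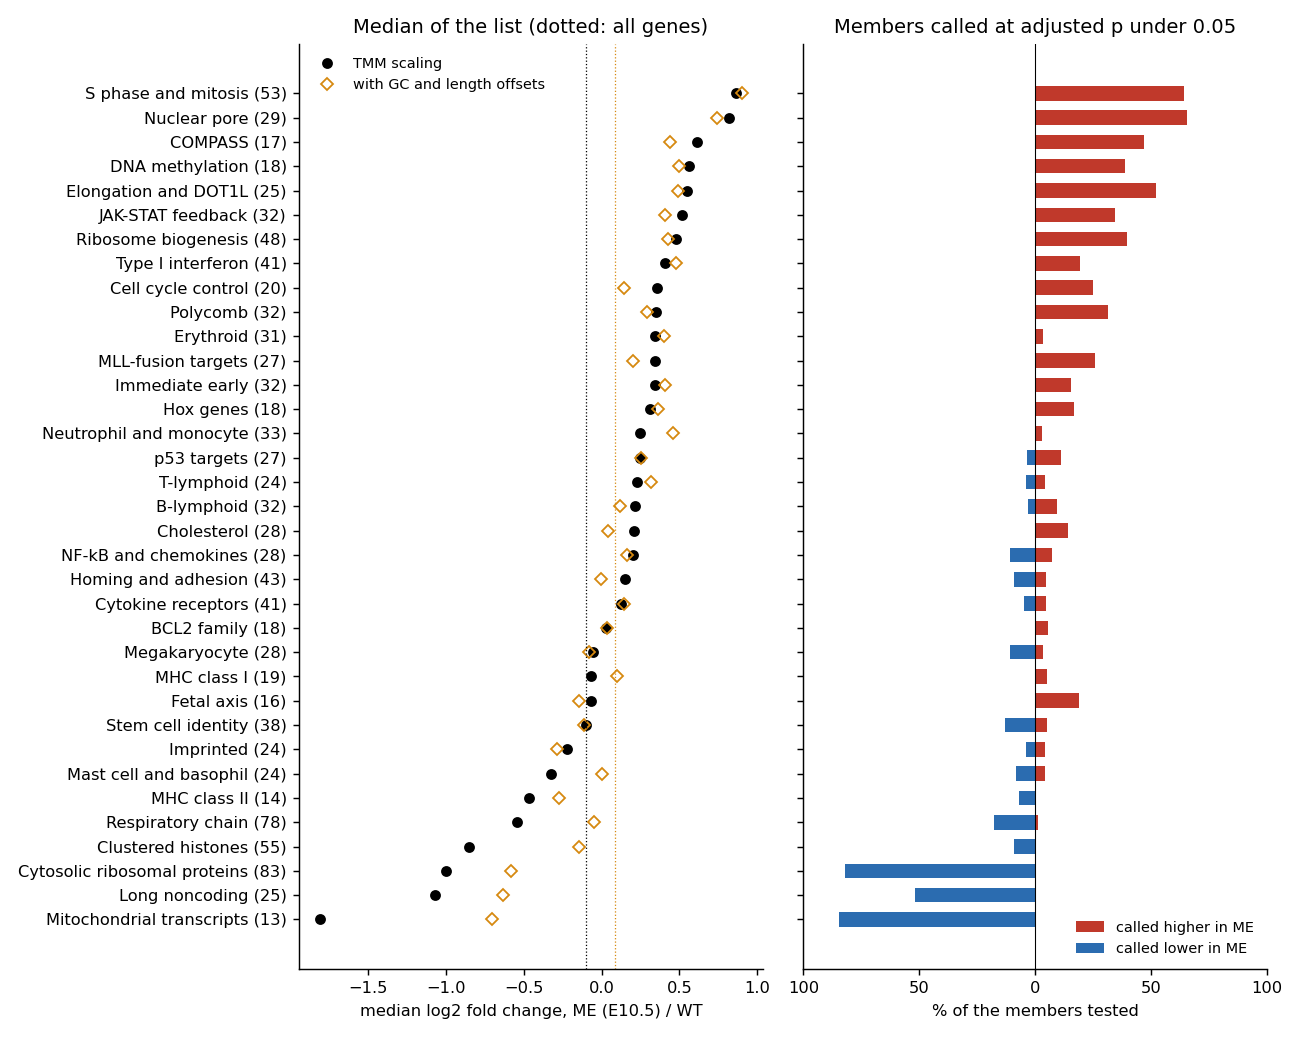
Left, the median log2 fold change of each gene list at P28, ME over WT, with TMM scaling and with GC and length offsets, and dotted lines at the medians of all genes (-0.10 and 0.09). Right, the percentage of each list's tested members called higher or lower. S phase and mitosis, nuclear pore and elongation lists lie above the all-gene lines in both fits, and mitochondrial, long noncoding and ribosomal protein lists lie below them.

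Among 38 tested stem cell identity genes, 5 fell and 2 rose (median -0.10, against -0.10 over all genes). Of coding genes, 3.53% were called lower and 11.5% higher. Besides Mmrn1 and Procr, the falls were Ifitm1, Pdzk1ip1 and Sult1a1. Ifitm1 had 904, 1123, 1003 and 915 CPM in WT and 332, 437, 399 and 366 CPM in ME (log2 fold change -1.36 ± 0.22, edgeR adjusted p = 0.000967). Pdzk1ip1, a membrane protein whose regulatory element marks stem cells in reporter mice, had 85.2, 80.9, 94.7 and 82.4 CPM in WT and 38.5, 33.7, 40.0 and 40.3 CPM in ME (-1.17, adjusted p = 0.0036). The rises were the transcription factors Mecom and Gata2 (143 ± 18.4 to 276 ± 32.0 CPM, 0.95, adjusted p = 0.00934). Hlf (584 and 539 CPM), Mycn and Slamf1 (5.80 and 8.21 CPM) were not called. The length-adjusted fit gave the same counts, with a list median of -0.12 against 0.09 over all genes. The Gata2 call was lost without WT library 1 or 2. In bulk RNA, fewer cells of a type and less RNA per cell cannot be told apart.

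Mature lineage genes were called as follows, against 11.5% of coding genes called higher and 3.53% lower. Of 33 neutrophil and monocyte genes only Irf8 rose (26.6 ± 5.97 to 48.7 ± 12.2 CPM, edgeR adjusted p = 0.0435), a call lost with RLE scaling, plain totals and length adjustment, and whichever library was left out. The list's summed level was nevertheless 2780 to 3657 CPM in ME against 2339 to 2552 CPM in WT. Much of that difference lay in 1 member, Mpo, the granule peroxidase. Mpo had means of 418 CPM in WT and 954 CPM in ME without a call (adjusted p = 0.207). Of 31 erythroid genes only Gata1 rose, from 3.44, 6.90, 1.63 and 5.51 CPM to 12.3, 15.7, 15.9 and 15.4 CPM (log2 fold change 1.77, adjusted p = 0.0123), a call lost without WT library 1. Of 28 megakaryocyte genes Gfi1b rose and Mmrn1, Pf4 and Cd9 fell. In the length-adjusted fit Pf4 moved from -1.50 to -0.72 without a call (adjusted p = 0.149). Without 1 library the Pf4 call was lost in 7 of 8 fits, that of Cd9 in 3 (WT 3, ME 1 and ME 2) and that of Gfi1b in 2 (WT 1 and WT 2). Of 24 mast cell and basophil genes Gata2 rose and Cd63 and the basophil protease Prss34 fell, the latter with overlapping groups (6.63, 5.36, 0 and 11.8 CPM in WT, and 0.2 CPM in 1 ME library with the other 3 at 0). Without 1 library the call of Cd63 was lost in 6 of 8 fits and that of Prss34 in 5.

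Of 32 B-lymphoid genes, Ikzf1 (159 ± 9.94 to 287 ± 23.6 CPM, log2 fold change 0.85, edgeR adjusted p = 0.00427), Tcf3 (180 ± 44.4 to 354 ± 32.1 CPM) and the barely expressed Spib (0.0873 ± 0.0818 to 1.06 ± 0.423 CPM) rose, and the surrogate light chain gene Igll1 fell from 5.43 ± 2.62 to 0.842 ± 0.257 CPM (adjusted p = 0.0318). The Igll1 call was lost in 6 of 8 fits without 1 library, with voom weights and with no filter, and that of Tcf3 without WT library 1 or 2. Dntt (262 and 510 CPM) was not called. For coding genes as a whole, 11.5% were called higher and 3.53% lower. Of 24 T-lymphoid genes, Tox rose from 22.8 ± 4.03 to 56.2 ± 7.90 CPM (1.30, adjusted p = 0.0107, lost without WT library 1 or 2) and Gata3 fell.

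Markers of cells that a sort of progenitors should lack gave the following sums. The 18 macrophage markers summed to 128 to 180 CPM in WT and 79.3 to 123 CPM in ME with Vsig4 at 0 in all 8 libraries, the 13 mature B cell markers to 321 to 337 and 268 to 302 CPM, and the 10 tested mature T and NK markers to 73.4 to 108 and 107 to 124 CPM. No member of these 3 lists was called, against 12.3% of all genes, and the part of such cells in the results was not tested. The 20 endothelial and stromal markers summed to 116 to 144 and 83.0 to 140 CPM, and of these Plvap rose and Tie1 fell, calls lost in 6 and 5 of 8 fits without 1 library. The 9 hepatocyte markers summed to 87.0 to 101 CPM in WT and 181 to 254 CPM in ME and most of that was 1 member, the transcription factor Hnf4a, which had 70.6, 65.8, 79.4 and 81.1 CPM in WT and 227, 239, 225 and 167 CPM in ME (log2 fold change 1.53, edgeR adjusted p = 0.0116, lost without WT library 1 or 2). Serpina1a of that list was at 0 in all 8 libraries.

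Among 43 homing and adhesion genes, 2 rose, Pcdh7 among them, and 4 fell: F11r, S1pr1, Cd9 and Ackr3, the last at no more than a mean of 0.328 CPM. F11r, the junction protein JAM-A, had 98.3, 101, 103 and 105 CPM in WT and 61.9, 61.2, 65.6 and 52.3 CPM in ME (log2 fold change -0.76, edgeR adjusted p = 0.00472). S1pr1, the receptor that draws cells out of tissue, fell from 31.3 ± 5.96 to 17.6 ± 3.62 CPM (-0.83, adjusted p = 0.0141, and 0.0549 with length adjustment). The list held 2 falls in the length-adjusted fit, 2 without WT library 3 or ME library 2 and 1 without ME library 1, and 1 rise without WT library 1, 2 or 4 or ME library 3 or 4. Cxcr4 (42.9 and 31.8 CPM) and Cd44 (165 and 141 CPM) were not called. The background for this list and the next was 11.5% of coding genes called higher and 3.53% lower. Of 41 cytokine receptor genes, Il9r and Tgfbr1 rose and Il11ra1 and Insr fell, Il11ra1 from 53.2 ± 3.20 to 27.2 ± 4.45 CPM (-0.97, adjusted p = 0.00478). Without 1 library the calls of Il9r and Il11ra1 were always kept, that of Tgfbr1 was lost without WT library 1 and that of Insr in 4 fits.

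Of 32 JAK-STAT genes, 11 rose and none fell (median log2 fold change 0.52), against 11.5% of coding genes called higher. Their median exonic length was 5732.5 bases, and 245 of 1551 coding genes of 5074 to 6001 bases were called higher. Stat3 had 184, 162, 231 and 244 CPM in WT and 398, 342, 434 and 382 CPM in ME (0.92 ± 0.19, edgeR adjusted p = 0.00454), and Stat5a (84.3 ± 8.31 to 141 ± 13.8 CPM), Jak2 (84.9 ± 8.61 to 142 ± 14.6 CPM) and Jak3 (212 ± 42.1 to 362 ± 48.1 CPM) also rose. The inhibitors Socs1, Socs2, Socs3 and Cish were not called, with log2 fold changes from -0.34 to 0.12. The count was 9 in the length-adjusted fit, 1 with plain totals, 3 without WT library 1, 1 without WT library 2, 6 without ME library 1, 7 without ME library 2 and 2 without ME library 3.

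Of 41 type I interferon response genes, 8 rose and none fell (median 0.41), against 11.5% of coding genes called higher. The risers were sensors, editors and STATs such as Dhx58 (41.1 ± 4.10 to 83.1 ± 22.9 CPM, log2 fold change 1.01, edgeR adjusted p = 0.00446), Parp14 (32.1 ± 6.98 to 78.1 ± 11.6 CPM) and Adar (70.4 ± 14.5 to 152 ± 26.9 CPM). The commonly used indicators Isg15 (26.4 and 28.4 CPM), Ifit1 (57.7 and 62.9 CPM) and Mx1 (5.89 and 6.13 CPM) were not called. The count was 9 with length adjustment, 2 with plain totals, and 2 to 5 without WT library 1, 2 or 4 or ME library 3 or 4. Of 32 immediate early genes 5 rose, against the same 11.5%. The leading rise was the ERK phosphatase Dusp6, which had 79.2, 97.6, 75.6 and 74.8 CPM in WT and 208, 182, 166 and 152 CPM in ME (1.12 ± 0.16, adjusted p = 0.000311). The immediate early count was 1 with RLE scaling or plain totals, and 1 to 3 without WT library 1, 2, 3 or 4 or ME library 1, 2 or 3.

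Among 28 genes of NF-kB and chemokines, the chemokines Ccl3 (20.5 ± 3.89 to 6.76 ± 3.68 CPM) and Ccl4 (33.6 ± 5.63 to 12.3 ± 3.16 CPM) and the inducible regulator Nfkbiz fell while the subunits Rela (133 ± 15.7 to 204 ± 12.1 CPM, edgeR adjusted p = 0.0298) and Rel (adjusted p = 0.0468) rose. Neither rise was called with RLE scaling or plain totals, and without 1 library at most 1 of them was (none without WT library 1 or 2 or ME library 1, 2 or 3). The Nfkbiz call was lost in 7 of 8 such fits and that of Ccl3 in 4. Neither Ccl3 nor Ccl4 was called in the length-adjusted fit (adjusted p = 0.389 and 0.229). Beside the lists of this paragraph, 11.5% of coding genes were called higher and 3.53% lower. Of 14 MHC class II genes H2-Ob fell, and of 19 class I genes the transactivator Nlrc5 rose. Nlrc5 was not called in the length-adjusted fit (adjusted p = 0.0683), with plain totals or without WT library 1, WT library 2 or ME library 3, and H2-Ob was not called without WT library 1 or 4 or ME library 1 or 2. Of 28 cholesterol and lipid synthesis genes, Fasn (73.6 ± 24.1 to 191 ± 35.4 CPM), Srebf1 (92.7 ± 15.1 to 168 ± 20.9 CPM), Lss and Scd2 rose and none fell. In the length-adjusted fit 2 were called, Fasn and Srebf1, and without 1 library the count lay between 1 (WT 1 and WT 2) and 5 (WT 4), with 2 without WT 3 or ME 1, 2 or 3.

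The other groups of the series place these differences by age and time of induction. ME induced at P0 and taken at P28 differed from the same 4 WT libraries in 362 genes (1.57%). A direct test of P0-induced against E10.5-induced ME called 11 genes (0.0477%), 7 of them among the genes named by the fixed rule. Pcdh7, Tifab, Ehd3, Dbn1 and Pde3b were lower after P0 induction, with log2 differences of -3.97, -2.31, -2.15, -2.19 and -1.63 (edgeR adjusted p = 3.34e-06, 8.04e-05, 0.00738, 0.00983 and 0.00738). Gata3 and Mmrn1 were higher after P0 induction, by 2.26 and 1.92 (adjusted p = 0.0009 and 0.0129). Against WT, the P0-induced values of these 7 genes were -0.26 for Pcdh7, 0.32 for Tifab, 0.83 for Ehd3, -0.14 for Dbn1, 0.21 for Pde3b, -0.03 for Gata3 and -0.23 for Mmrn1, none called.

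Some of the same genes differed in newborn liver, where E10.5-induced ME had 148 called genes against newborn WT (0.642%). Pcdh7 (log2 fold change 2.28, edgeR adjusted p = 0.00136), Tifab (1.26, adjusted p = 0.0223), Dbn1 (1.66, adjusted p = 0.0268), Pde3b (1.60, adjusted p = 0.00259) and Rhbdf1 (3.04, adjusted p = 0.00136) were higher there too, and Gata3 (-2.01, adjusted p = 0.00132) and Mmrn1 (-1.51, adjusted p = 0.0268) lower. Ehd3 was not called at birth (0.10), and its effect at P28 exceeded that at P0 by 2.88 (adjusted p = 0.00841). In the newborn comparison 5 Hox genes were called higher, against 3 at P28, and no Hox gene's effect differed between ages by the test of that difference. None of the S phase and mitosis genes was called in newborn liver or after P0 induction. For 11 of the 53 the effect at P28 exceeded that at birth by the same test, which called 166 genes in all (0.72%). For induction time, the direct test of P0-induced against E10.5-induced ME called none of the 53. The list median of P0-induced ME over WT was 0.32. Ages also differ in tissue, liver at P0 and marrow at P28. Kmt2a was higher in newborn ME (1.74, adjusted p = 4.16e-06) and after P0 induction (1.23, adjusted p = 0.000873), and its effect at P28 after E10.5 induction was below that at birth by -1.31 (adjusted p = 0.017).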

How the data were processed

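RNeasy Plus extraction (Qiagen) was followed by Clontech SMARTer library chemistry, per the labels' protocols. The authors deposited 1 table of read counts per gene for 24 libraries, made with STAR 2.7.9a and featureCounts 2.0.3 of Subread on GRCm38, per the submitters' processing notes. Strand setting and the handling of multiply matching reads are not given in the sources used here. The table had 55774 entries, and 287 repeats of 168 identifiers with identical counts were dropped. Of 55487 identifiers 55141 matched GENCODE M21.

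Counts were tested with edgeR 4.0.16 in R 4.3.3 (TMM, filterByExpr with a minimum count of 10, robust quasi-likelihood F-test, 1 mean for each of 6 groups over all 24 libraries, 18 residual degrees of freedom). Log2 values used a prior count of 2. Named genes were the 15 largest rises and falls (called, mean log2 CPM of at least 3, groups apart, without predicted, pseudo, immunoglobulin and sex-linked marker genes), up to 4 called members of each of 40 lists by smallest adjusted p, and label checks. Other genes given with values are list members or were chosen after their values were seen. The comparison and the lists were chosen with earlier results of these data known, and the histone list was widened to current symbols. Alternatives included RLE scaling, plain totals, DESeq2 1.42.0, limma 3.58.1 voom weights, other filters and sample sets, GC and length offsets, and leaving out each library. Scripts were tested on simulated data. Sequences are from RefSeq (GRCm38.p6). Some members of the lists are not reported here.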

Additional observations from a re-analysis of the deposited data

Results flagged for a closer look

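Effects that differed between ages by an interaction test (edgeR, log2 effect at P28 minus effect at P0) were, on the positive side, Ehd3 2.88, Dnmt1 1.96, Dusp6 1.60, Uhrf1 1.56, Mcm4 1.51, Nat10 1.43, Heatr1 1.41, Nup93 1.32, Rrm1 1.27, Ddx21 1.22, Mcm6 1.19, Nup50 1.06, Junb 1.03, Rbbp7 0.77 and Rbl1 0.76. On the negative side they were Mir99ahg -3.17, Ccl3 -3.10, Kcnq1ot1 -2.85, Tfec -2.46, Neat1 -2.27, Postn -2.22 and Kmt2a -1.31. Effects that differed between induction at P0 and at E10.5 by the direct test were Pcdh7 -3.97, Tifab -2.31, Dbn1 -2.19, Ehd3 -2.15, Pde3b -1.63, Mmrn1 1.92 and Gata3 2.26.

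Single libraries stood away from the other 3 of their group by Dixon's criterion, which chance meets in about 1 in 20 groups. Among WT these were Igha at 0.678 CPM (others up to 0.124) and Irf8 at 17.7 (29.1 to 30.5) and Kmt2c at 24.4 (33.2 to 34.6) in library 2, Plk1 at 55.1 (44.7 to 45.8) and Top2a at 350.4 (291 to 299) in library 3, and Tdg at 51.4 (32.0 to 33.6), Scd2 at 410.1 (270.2 to 292) and Tie1 at 77.8 (64.9 to 66.5) in library 4. In ME library 1 it was Gata1 at 12.3 CPM (15.4 to 15.9). ME library 2 held mt-Nd3 at 10.1 (4.38 to 5.19), mt-Cytb at 1300.2 (926 to 987), Ppic at 31.5 (27.7 to 28.2), Mmp9 at 198 (0.771 to 2.49) and Ctsk at 147 (0 to 0.243). ME library 3 held Jarid2 at 115 (95.0 to 97.8), Parp14 at 95.3 (69.8 to 73.9), Plvap at 19.3 (7.50 to 7.97) and Prss34 at 0.200 (others 0). ME library 4 held Pde3b at 74.5 (112 to 114), Rela at 186 (209 to 211), Ier2 at 99.9 (131 to 135), Snhg20 at 7.25 (2.34 to 2.51) and Igha at 61.4 (0 to 0.166).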

How the results depend on the processing

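The count of called genes, 2827, was 6492 with voom quality weights, 1767 with no filter on low counts, 6296 with only the groups compared, 5810 with only the P28 libraries, and 893 to 2723 without 1 library. Genes called higher, 1804, were 750 with plain totals, 3737 with voom, 1028 with no filter, 3221 with only the groups compared, 3206 with only the P28 libraries and 465 to 1730 without 1 library. Genes called lower, 1023, were 2037 with DESeq2, 2755 with voom, 3075, 2604 and, with GC and length offsets, 552, and 428 to 993 without 1 library. Of the rises 1300 and of the falls 452 kept their call and sign with offsets. The cause of these shifts was not tested. Same-numbered WT and ME libraries correlated in their deviations from the group means at 0.17, 0.07, 0.43 and -0.12. Differently numbered libraries correlated at -0.37 to 0.21. No label says whether the numbers pair animals, and so few values cannot decide it. A replicate block over 20 numbered libraries gave 3110 calls against 3019 without it. Direction changed for Ly6a with offsets (0.25), for Igha without ME library 4 (-1.29 to 7.60 without 1 library) and for Meis1, near 0, without 1 of 5 libraries (-0.10 to 0.037 without 1 library). For single genes in the other 12 alternatives, 1762 values kept direction and call, 118 lost the call and 8 gained it. The common estimate of biological variation over the genes was 73.0% among the 4 WT libraries and 33.6% among the 4 ME libraries. Whether this spread or depth limits the precision of single genes was not tested.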

Other observations

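The following genes were chosen after their values were seen. In ME library 2 alone, genes known from bone-resorbing osteoclasts were abundant. Ctsk, which encodes the protease cathepsin K, had 147 CPM there, between 0 and 0.243 CPM in the other ME libraries and at most 0.0308 CPM in WT (edgeR adjusted p = 0.0104, and 0.286 without that library). Mmp9, a matrix protease, had 198 CPM there, 0.771 to 2.49 CPM in the other ME libraries and 0.216 to 1.60 CPM in WT (log2 fold change 5.59, adjusted p = 0.0302, and 0.80, adjusted p = 0.687, without that library). Acp5, the tartrate-resistant phosphatase, had 116 CPM there, 3.88 to 5.01 CPM in the other ME libraries and 3.41 to 6.38 CPM in WT, and was not called (adjusted p = 0.0695).

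In ME library 4 alone, Igha, the constant region of IgA, had 61.4 CPM, against 0 to 0.678 CPM in the other 7 libraries. Its call (log2 fold change 6.35, edgeR adjusted p = 0.0373) was lost without that library (-1.29, adjusted p = 0.655) and in several other fits.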
